A study of Mus musculus with 8 samples.

Results

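Retinoic acid is the hormone-like product of vitamin A, and this account follows 10 genes that make it, break it down or bind it in precursors of the mouse kidney collecting system. The genes were Aldh1a1, Aldh1a2, Aldh1a3, Adh1, Rdh10, Dhrs3, Cyp26a1, Cyp26b1, Crabp1 and Crabp2, taken by the gene name printed beside each array probe. They were 10 of 34837 gene names on the array, and each had exactly 1 probe, which was measured on all 8 arrays.

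The study profiled sorted cells of mouse embryos of the ICR strain on Agilent 1-colour expression arrays, 1 array per sample, to follow ureteric bud precursors over time and to set them against neighbouring nephron precursors. Cells carrying the Hoxb7-GFP reporter, which marks the nephric (Wolffian) duct and its outgrowth the ureteric bud, came from embryos at E8.75 (E for embryonic day) without division, from E9.5 and E10.5 ducts each divided into a rostral and a caudal part, and from E11.5 ureteric bud. Cells carrying the Wt1-GFP reporter, here taken as intermediate mesoderm that yields nephron progenitors, came from the rostral and the caudal part of E9.5 embryos. From every sample 10 ng of total RNA was amplified before Cy3 labelling. All embryos were described by strain and reporter alone, with no other allele and no treatment. The series text gives removal of Flk1-positive (endothelial) cells for the Hoxb7-GFP sorts; the sample labels name it from E9.5 onwards and not at E8.75, and they name no such step for Wt1-GFP. A reporter marks cells by the activity of its driving sequence and not by lineage alone, so each sort may hold more than 1 cell type. The labels do not say whether samples came from separate animals or litters, and no kind of sample was repeated. The residual spread behind p-values and SEs is therefore how far the rostral and caudal differences of the 3 divided groups disagree. It is not a spread between repeats or animals. In sorted bulk samples, fewer cells of a type and less RNA per cell cannot be told apart.

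Vitamin A (retinol) is oxidised stepwise. RDH10, and with less specificity the alcohol dehydrogenase ADH1, convert retinol to retinaldehyde, DHRS3 drives the reverse reduction, and the retinaldehyde dehydrogenases ALDH1A1, ALDH1A2 and ALDH1A3 make retinoic acid irreversibly. The CYP26 enzymes oxidise retinoic acid and so remove it, CRABP1 and CRABP2 bind it in the cytoplasm, and the nuclear receptors RAR and RXR carry its effect to target genes. In the embryonic trunk and kidney, retinoic acid made by mesoderm acts on the duct epithelium, where it is known to sustain the receptor gene Ret.

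Several of these genes are themselves targets of the pathway, and the promoter table was searched for the sequence that RAR and RXR bind. The element searched was a direct repeat of any pair of half-sites, each either AGGTCA or the variant with the letters GGGTCA or the variant with the letters AGTTCA or the variant with the letters GGTTCA, on either strand, spaced by 5 bases or by 2 bases, in the 300-base window of each RefSeq promoter (250 bases before and 50 after the start, build GRCm38.p6). Of the 10 genes, 7 were matched in that table and Aldh1a3, Rdh10 and Crabp2 were not. The spacing-5 repeat was found in 32 of 32851 promoters (0.0974%) and in 1 of the 7 matched genes, Cyp26a1. The spacing-2 repeat was found in 88 promoters (0.268%) and in 0 of the 7. Among 22 genes listed as responsive to retinoic acid, 13 were matched and 2 held the spacing-5 repeat, Cyp26a1 and the receptor gene Rarb. Both stretches are shown because they belong to the breakdown enzyme and the receptor whose levels are described below; they are written on the gene's strand with the half-sites in capitals and 6 flanking bases on each side.
Cyp26a1: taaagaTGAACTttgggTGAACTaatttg
Rarb: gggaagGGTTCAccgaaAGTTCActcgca
The Cyp26a1 stretch lies at chr19:37697770-37697798, on the + strand, from -38 to -10 relative to the start used in the table, and the repeat itself (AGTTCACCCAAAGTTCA) reads on the opposite strand. The whole Cyp26a1 gene starts at 37697738 in RefSeq, so this stretch lies inside its outermost span. The Rarb stretch lies at chr14:16575507-16575535, on the - strand, from -59 to -31. A match describes the letters and is not a measured binding site.

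All levels below are log2 spot signals after subtraction of the log2 75th percentile of the same array, so 0 is the level that 75% of probes stay under. They may be compared between arrays for 1 probe and not between probes. "Well above background" is the scanner software's own call. Differences were fitted with limma over all 8 arrays (2 residual degrees of freedom). limma draws the residual spread of each probe toward a spread shared by all tested probes, so SEs and p-values rest partly on other probes. Adjusted p-values run over 45585 probes that were well above background on at least 1 array. At adjusted p 0.05, 0 of these 45585 probes (0%) passed in any of the 6 comparisons, and so did 0 of the 10 genes; what follows are levels and differences with their errors, none of which passed that test. The lowest adjusted p over all probes was 0.21 between the reporters, 0.23, 0.6 and 0.28 for the 3 steps in time, 0.77 for rostral against caudal and 0.79 for the interaction of position with reporter.

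The arrays were even in brightness, with a 75th percentile of 242.9 to 316.7 signal units over a background of 25 to 31, 61% to 69.4% of probes well above background, and 0 saturated spots. Wt1, the gene of the reporter, was at 4.08 and 4.01 in the Wt1-GFP samples against -0.2 and -1.94 in E9.5 duct. The other listed markers of intermediate and nephrogenic mesoderm were mixed: Osr1 was at 1.4 and 2.68 against -1.04 and -2.67, Cited1 went the other way (1.23 and 2.75 against 4.63 and 3.46), and Eya1 was flat at 9.12 to 9.5 on all arrays and carried most of the list's sum, 756 and 711 against 716 and 632. The 10 duct markers summed to 122 at E8.75 and 186 to 419 on the later Hoxb7-GFP arrays, against 16.9 and 11.4 in mesoderm. Cldn6 (6.95 to 8.48 on the later Hoxb7-GFP arrays, 1.56 and 0.95 in mesoderm) carried most of the later sums. Pax8 did not separate the reporters, at 1.3 and 0.03 in E9.5 duct, -0.63 in bud and 0.88 and 0.74 in mesoderm. The other listed duct markers were higher in both E9.5 duct arrays than in both mesoderm arrays. Of the 10 markers, 8 were well above background at E8.75 (Wnt9b and Cdh1 were not), 10 on each later Hoxb7-GFP array, and 7 on each Wt1-GFP array. Some samples also carried markers of other tissues. The E8.75 array had an endothelial marker sum (7 genes, as multiples of the 75th percentile signal) of 42.7 against 4.04 to 6.04 elsewhere and an endoderm sum (5 genes) of 4.86 against 0.128 to 1.12. The rostral E9.5 duct array had a neural marker sum (7 genes) of 102 against 2.65 to 22.1 elsewhere, including Tubb3 at 6.45, which carried most of it, and Stmn2 at 3.47. Elavl3, Sox2 and Olig2 were also highest there. Pax6 was not well above background there, and Sox1 (-1.12) was below rostral mesoderm (-0.79). The same array had a heart sum (3 genes) of 6.76 against 0.602 to 2.78, with Actc1 (-0.06) below both mesoderm arrays (0.61 and 1.17). The caudal E9.5 duct array had the highest blood sum (4 of 5 genes measured), 22.9 against 0.261 to 10.1 elsewhere. Hbb-y (4.27) carried most of it, and Gata1 and Klf1 were not well above background there. Both E9.5 duct arrays lay in slide row 1 and both Wt1-GFP arrays in slide row 2, so row and reporter cannot be told apart at E9.5 within a row. Only the E10.5 duct pair was divided between rows. A slide-row term in the fit took its size from that pair and cannot separate row from E10.5 position. Values given below with a slide-row term are therefore not corrected for row.

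The 3 retinaldehyde dehydrogenases did not share 1 pattern. Aldh1a2, the main retinoic acid source of trunk mesoderm in the embryo, was at 1.3 at E8.75, at -0.37 (rostral) and -1.22 (caudal) in E9.5 duct, at -1.47 and -3.89 in E10.5 duct, at -4.49 in E11.5 bud, and at 3.82 and 3.75 in Wt1-GFP mesoderm. Both mesoderm arrays lay above all 6 Hoxb7-GFP arrays, and the levels at caudal E10.5 and in the bud were not well above background. Between the reporters at E9.5 the difference was -4.58 (SE 0.66, 2 arrays each), 23.9-fold lower in duct, with a limma adjusted p of 0.26; it was past the threshold when the prior variance followed intensity (adjusted p 0.031) and with another background correction, normexp (-4.09, adjusted p 0.024). Among all probes tested, 0.307% differed by at least as much. The sum of the somite and paraxial marker list was also highest in mesoderm: 7 of its 8 genes were measured, with sums of 25.6 and 19.5 in Wt1-GFP mesoderm, 13.7 at E8.75, 2.76 and 2.71 in E9.5 duct, 1.42 and 1.2 at E10.5 and 0.907 in bud. Those sums rested on Meox1 (3.44 and 3.28 in mesoderm, 3.23 at E8.75, -0.07 and 0.32 in E9.5 duct) and Foxc2 (3.74 and 3.08, 1.75, -0.52 and -0.92). The other genes varied far less or ran the other way: Tcf15 was at -2.86 and -2.93 in mesoderm, -3.43 at E8.75 and -3.33 and -3.51 in E9.5 duct, Tbx6 ran from -2.4 to -1.83 and Uncx from -1.57 to -0.53 over the 8 arrays, and Pax3 was lower in mesoderm (-3.43 and -4.06) than in E9.5 duct (-3.17 and -3.11). The sum of the limb and lateral plate list (6 genes) was also highest in mesoderm, at 3.28 and 6.5 against 0.103 to 1.83 elsewhere. Hand2, Foxf1 and Prrx1 were higher in both mesoderm arrays than on any other. Tbx4 (-6.11) in rostral and Tbx5 (-5.68) in caudal mesoderm were not well above background, and Pitx1 (-2.87) in rostral mesoderm was below E8.75 (-0.61). The coelomic list, given below with Adh1, was highest in mesoderm too. The part of cells of any of these lists in the Aldh1a2 levels was not tested.

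Aldh1a1, a retinaldehyde dehydrogenase of epithelia, was at -0.38 at E8.75, at -0.07 rostrally and 4.03 caudally in E9.5 duct, at 0.1 and 3.94 in E10.5 duct, at 3.98 in E11.5 bud, and at -1.14 and -5.22 in mesoderm. The 3 high arrays were the caudal duct at both stages and the bud, and the E8.75 and both rostral duct arrays formed a low set between -0.38 and 0.1. Only the rostral mesoderm array was well above background in the Wt1-GFP pair. The E9.5 duct exceeded mesoderm by 5.16 (SE 2.41, limma adjusted p 0.48), a fitted 35.8-fold difference that is 25.9-fold with the dim array set at its floor. That value moved when single arrays were left out: it was 1.13 without the caudal mesoderm array, 9.19 without the rostral mesoderm array, and 3.05 without the caudal duct array. These fits applied the position term of the other pairs to the lone array. Without a mesoderm array that term was -3.97, from the ducts, against 4.08 in the mesoderm pair itself, so 1.13 and 9.19 carry that shift. With normexp the difference was 3.41 and with a slide-row term 9.

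Aldh1a3, known from the nephric duct and ureteric bud, was at 2.14 at E8.75, at -2.31 rostrally and 4.39 caudally in E9.5 duct, at 0.76 and 4.04 in E10.5 duct, at 4.22 in bud, and at -4.51 and -4.53 in mesoderm. Neither mesoderm array was well above background, and all 6 Hoxb7-GFP arrays lay above both. The mean of the E9.5 duct arrays was 35.8-fold higher than mesoderm with the mesoderm arrays at their floor (fitted difference 5.56, SE 1.75, limma adjusted p 0.4). That mean joins duct arrays far apart, at -2.31 and 4.39. The fitted difference was 3.03 when the caudal duct array was left out and 8.09 when the rostral duct array was. It was 3.06 when the caudal mesoderm array was left out, although the 2 mesoderm arrays were level. That change is the duct position term (-4.99) applied to the lone mesoderm array. With normexp the fitted difference was 3.52. Across the 8 arrays, Aldh1a3 and Aldh1a1 correlated at r = 0.88, and Aldh1a2 correlated with them at -0.84 and -0.86; these arrays share their sorts and stages, so the values are descriptions.

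Adh1 was at -4.3 at E8.75, at -5.17 and -4.49 in E9.5 duct, at -5.51 and -2.98 in E10.5 duct, at -1.86 in bud, and at 3.42 (rostral) and 1.22 (caudal) in mesoderm. Both mesoderm arrays lay above every Hoxb7-GFP array, and both rostral duct arrays were not well above background. The duct was 142-fold lower by the fit (-7.15, SE 1.25, limma adjusted p 0.28), and 123-fold lower with the dim array at its floor; 0.0329% of probes differed by at least as much. With normexp the difference was -4.3, with a slide-row term -3.87, and with the intensity-dependent prior its adjusted p was 0.043. Markers of coelomic epithelium, of which 6 of 7 were measured, summed to 17 and 5.74 in the mesoderm arrays and to between 0.454 and 3.44 elsewhere, with 6 of 6 well above background in mesoderm and 3 to 5 elsewhere. Gata4 (3.1) led the rostral mesoderm sum and Tcf21 (1.87) the caudal one. Krt19, Bnc1, Lrrn4 and Tcf21 were higher in both mesoderm arrays than on any other. In caudal mesoderm Gata4 (-3.08) was below rostral E9.5 duct (1.23) and Upk3b (-2.99) below E10.5 duct (-2.43 and -1.89). The part of such cells in the Adh1 level was not tested.

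Rdh10, the retinol dehydrogenase that supplies retinaldehyde in the embryo, was nearly flat. It was at 2.47 at E8.75, at 2.23 and 1.6 in E9.5 duct, at 2.3 and 1.63 in E10.5 duct, at 2.29 in bud, and at 2.51 and 2.95 in mesoderm. Its range over the 8 arrays was 1.35, and 39.5% of tested probes had a smaller range, so its spread was ordinary where that of Aldh1a1 (9.25), Aldh1a2 (8.31), Aldh1a3 (8.91) and Adh1 (8.92) exceeded that of at least 99.8% of probes. The reporter difference was -0.81 (SE 0.39, limma adjusted p 0.49), between -1.36 and -0.26 over the leave-one-out fits and -1.39 with a slide-row term.

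Dhrs3, which returns retinaldehyde to retinol and is induced by retinoic acid, was at -0.94 at E8.75, at -1.4 and -1.94 in E9.5 duct, at 1.11 and -0.21 in E10.5 duct, at 2.88 in bud, and at 1.49 and 0.34 in mesoderm. The bud was the highest of all arrays and the E9.5 duct pair the lowest. Duct was below mesoderm at E9.5 by 6.01-fold (-2.59, SE 0.31, limma adjusted p 0.24, the lowest of the 10 genes; 0.024 with the intensity-dependent prior).

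**Figure D1:**
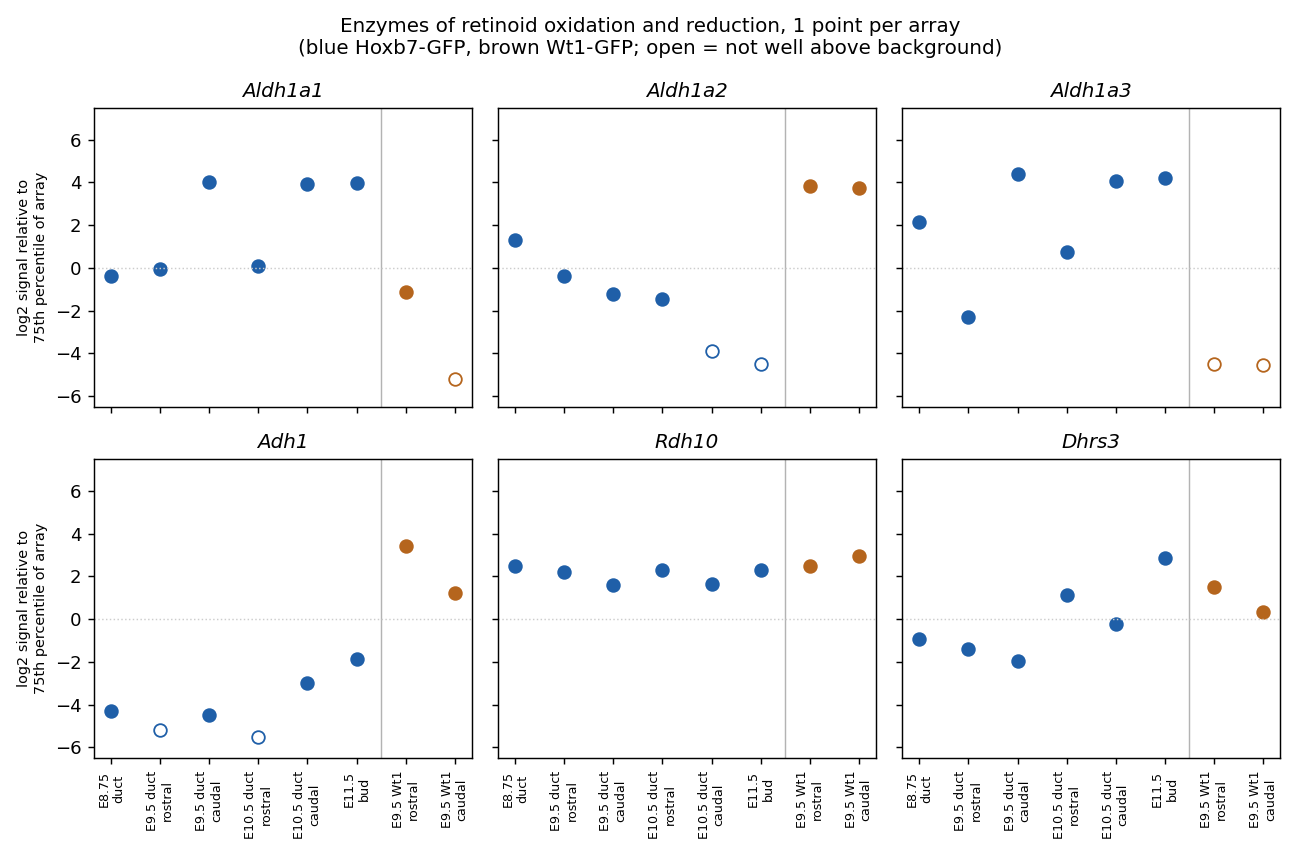
Level of the 6 enzymes that oxidise or reduce retinoids, in log2 units above the array's 75th percentile (vertical axis), with 1 point per array (horizontal axis; Hoxb7-GFP in blue, Wt1-GFP in brown, open points not well above background). Aldh1a2 and Adh1 were highest in the mesoderm arrays, Aldh1a1 and Aldh1a3 were near 4 in caudal duct and bud, and Rdh10 stayed between 1.6 and 2.95.

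Of the enzymes that remove retinoic acid, Cyp26a1 was at 2.17 at E8.75, at 0.23 and -0.9 in E9.5 duct, at -0.73 and -0.43 in E10.5 duct, at -5.11 in bud, and at -5.52 and -3.15 in mesoderm. The E8.75 array was highest, the 4 divided duct arrays lay together, and the bud and the rostral mesoderm array were not well above background. The probe that gave these values, shown because it fixes which stretch was measured, starts at base 1320 of the transcript, at chr19:37775566-37775625 on the + strand of mm9, the build of the array's own coordinates.
Cyp26a1 probe: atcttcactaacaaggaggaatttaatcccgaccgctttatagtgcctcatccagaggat
The E9.5 duct exceeded mesoderm by 4 log2 units (SE 0.94, limma adjusted p 0.34), a fitted 16-fold difference and 9.32-fold with the dim array at its floor; it was 1.69 with normexp and 2.61 when the rostral mesoderm array was left out. Cyp26b1, the second enzyme of the family, was at -0.02 at E8.75, at -1.97 and -0.91 in E9.5 duct, at -1.36 and -0.97 in E10.5 duct, at 1.5 in bud, and at -0.27 and 0.04 in mesoderm. Its order was thus unlike that of Cyp26a1, with the bud highest and the divided ducts lowest, and the mesoderm arrays lay above all 4 divided duct arrays. The reporter difference was -1.33 (SE 0.31, limma adjusted p 0.34), 2.52-fold lower in duct.

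Crabp1, a cytoplasmic binding protein of retinoic acid known from neural tissue and mesenchyme, had the widest range of the 10 genes, 10.88. It was at 3.03 at E8.75, at 6.63 rostrally and 3.89 caudally in E9.5 duct, at 0.56 and 3.26 in E10.5 duct, at -4.25 in bud, and at 4.4 and 4.95 in mesoderm. The rostral E9.5 duct array, which carried the neural marker sum of 102, was the highest; the part of neural cells in it was not tested. Its probe starts at base 344 of the transcript, at chr9:54616192-54616251 on the + strand of mm9.
Crabp1 probe: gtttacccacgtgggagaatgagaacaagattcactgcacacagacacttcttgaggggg
The reporters overlapped: the difference was 0.58 (SE 1.43, limma adjusted p 0.89), it turned to -1.6 when the rostral E9.5 duct array was left out, and was 2.77 when the caudal one was and 4.38 with a slide-row term. Crabp2, which hands retinoic acid to the nuclear receptors, was at 4.58 at E8.75, at 6.08 and 4.8 in E9.5 duct, at 5.46 and 5.11 in E10.5 duct, at 4.19 in bud, and at 5.34 and 5.4 in mesoderm. All 8 arrays lay within 1.89, the reporter difference was 0.08 (SE 0.42, limma adjusted p 0.95), and its sign turned to -0.49 without the rostral duct array and to -0.36 without the rostral mesoderm array.

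**Figure D2:**
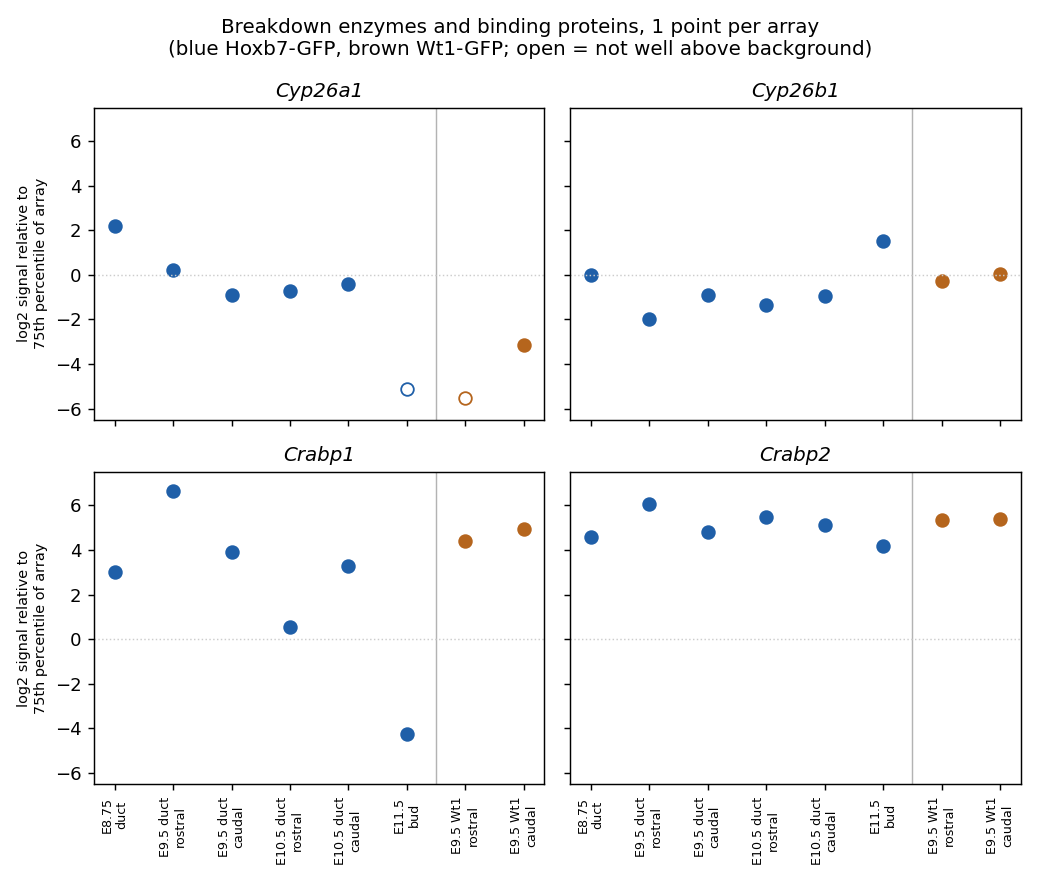
Level of the breakdown enzymes Cyp26a1 and Cyp26b1 and the binding proteins Crabp1 and Crabp2, in log2 units above the array's 75th percentile, with 1 point per array (Hoxb7-GFP in blue, Wt1-GFP in brown, open points not well above background). Cyp26a1 and Crabp1 were lowest or near their lowest in the E11.5 bud, at -5.11 and -4.25, while Cyp26b1 was highest there, at 1.5.

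Set side by side at E9.5, the duct had higher Aldh1a1, Aldh1a3 and Cyp26a1 and lower Aldh1a2, Adh1, Dhrs3 and Cyp26b1 than the mesoderm, each by at least 2-fold. These 7 of 10 genes compare with 17.9% of all tested probes at that size. At an unadjusted limma p under 0.05, 6 of 10 genes were counted (2 higher and 4 lower in duct) against 11.7% of probes (6.1% higher and 5.62% lower). The median absolute difference was 3.29 over the 10 genes and 0.43 over all probes. The genes were chosen with earlier results of these data known, so these contrasts with all probes are descriptions and not tests.

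**Figure D3:**
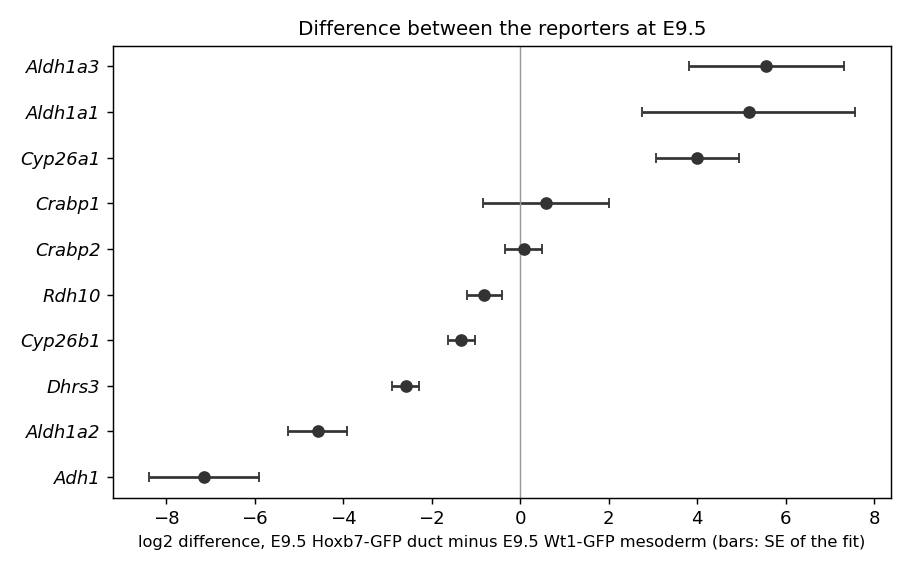
Fitted log2 difference between E9.5 Hoxb7-GFP duct and E9.5 Wt1-GFP mesoderm (horizontal axis; right is higher in duct) for the 10 genes, with bars for the SE of the fit over 8 arrays. Adh1 (-7.15) and Aldh1a2 (-4.58) lay farthest to the left, and Aldh1a3 (5.56), Aldh1a1 (5.16) and Cyp26a1 (4) farthest to the right.

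The study's time course asked how duct precursors differ from stage to stage. From E8.75 to E9.5, 6 of 10 genes differed by at least 2-fold against 25.8% of probes, and 1 of 10 had an unadjusted p under 0.05 against 14.5%. That gene was Cyp26b1, at -1.42 (SE 0.38, limma adjusted p 0.3). Cyp26a1 stood 5.69-fold lower at E9.5 (-2.51, SE 1.15, limma adjusted p 0.41), at -1.27 with the caudal E9.5 array left out and -3.74 with the rostral one left out. Aldh1a2 stood 4.28-fold lower (-2.1, SE 0.8, limma adjusted p 0.37). Both were measured against the single E8.75 array, where endothelial and endoderm markers were high and Meox1 was at 3.23; the part of those cells was not tested. The values for Aldh1a1 (2.37), Aldh1a3 (-1.1) and Crabp1 (2.23) each averaged a rostral and a caudal array that lay far apart, and leaving out 1 E9.5 duct array gave 0.26 to 4.47, -3.63 to 1.43 and 0.05 to 4.42.

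From E9.5 to E10.5, 4 of 10 genes differed by at least 2-fold against 14.4% of probes, and 2 of 10 had an unadjusted p under 0.05 against 7.33%. Dhrs3 stood 4.35-fold higher (2.12, SE 0.31, limma adjusted p 0.6), with both E10.5 arrays above both E9.5 arrays. Aldh1a2 stood 3.69-fold lower (-1.88, SE 0.66, limma adjusted p 0.68), with both E10.5 arrays below both E9.5 arrays and 1 of them, the caudal one, not well above background; it was -0.91 with that array left out or with a slide-row term, and -2.86 with the rostral one left out. Crabp1 stood 10.2-fold lower by the fit (-3.35, SE 1.43, limma adjusted p 0.72), between -5.53 with the caudal E9.5 array left out and -1.16 with the neural-marker-rich rostral one left out, and at -1.45 and -5.25 with the rostral and the caudal E10.5 array left out. Aldh1a3 differed by 1.36 (SE 1.75), or by -1.17 with the rostral E9.5 array left out.

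From E10.5 duct to E11.5 bud, 9 of 10 genes differed by at least 2-fold against 24.5% of probes, and 4 of 10 had an unadjusted p under 0.05 against 12.2%. The bud is 1 array and was assumed to vary like the other groups. Cyp26b1 was 6.38-fold higher (2.67, SE 0.38, limma adjusted p 0.28) and Dhrs3 5.4-fold higher (2.43, SE 0.38, adjusted p 0.28), each above both E10.5 arrays. Cyp26a1 was 18.6-fold lower with the bud array at its floor (fitted -4.53, SE 1.15, limma adjusted p 0.34, or -1.95 with normexp), below both E10.5 arrays. Crabp1 was 71.5-fold lower by the fit (-6.16, SE 1.76, limma adjusted p 0.37), -8.06 with the rostral E10.5 array left out, -4.26 with the caudal one left out and -4.12 with normexp, also below both E10.5 arrays. Aldh1a2 differed by -1.81 (SE 0.8, limma adjusted p 0.46), or by -0.83 and -2.79 with the rostral and the caudal E10.5 array left out, and neither the bud nor the caudal E10.5 array was well above background. Crabp2 was 2.14-fold lower. Adh1 differed by 2.38 (SE 1.53), or by 0.74 and 4.02 with the rostral and the caudal E10.5 array left out. For Aldh1a1 (1.96) and Aldh1a3 (1.82) the bud (3.98 and 4.22) was close to the caudal E10.5 duct (3.94 and 4.04) and far above the rostral one (0.1 and 0.76). With a slide-row term, which is set by that same E10.5 pair, the Aldh1a1 difference was 0.04.

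Position within the duct was the other axis of the labels. Pooled over the 3 divided groups, 4 of 10 genes differed by at least 2-fold between rostral and caudal against 9.34% of probes, and 1 of 10 had an unadjusted p under 0.05 against 6.35%. That gene was Dhrs3, 2-fold higher rostrally (1, SE 0.25, limma adjusted p 0.77), with pair values of 0.54, 1.32 and 1.15 in E9.5 duct, E10.5 duct and mesoderm. Aldh1a3 was 9.98-fold lower rostrally by the pooled fit (-3.32, SE 1.43, limma adjusted p 0.77). Its pair differences were -6.7 at E9.5 (104-fold) and -3.28 at E10.5 (9.68-fold), and mesoderm could not be read because both arrays were not well above background. The pooled value was -1.63 with either E9.5 duct array left out and -4.99 with either mesoderm array left out. In the E9.5 duct pair, 0.0329% of probes differed by at least as much as Aldh1a3. Marker sums also differed within that pair, rostral against caudal: neural 102 against 9.95, heart 6.76 against 0.744 and duct 186 against 322. In the E10.5 pair they were 8.77 against 22.1, 1.33 against 1.38 and 382 against 343. Blood sums, rostral against caudal, were 10.1 against 22.9 at E9.5 and 4.46 against 0.261 at E10.5. In the E9.5 pair the neural sum rested mostly on Tubb3 (6.45 against 3.17) and the duct sum on Cldn6 (6.95 against 7.91). The part of other cells in the position differences of Aldh1a3 and Aldh1a1 was not tested.

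Aldh1a1 had the same direction as Aldh1a3 in both ducts, -4.1 (17.1-fold) and -3.85 (14.4-fold), and the opposite one in mesoderm, 4.08. There the rostral array was 8.86-fold higher with the caudal one at its floor. Its pooled value, -1.29 (SE 1.97, limma adjusted p 0.89), therefore averaged opposed pairs, was 0.12 with either E9.5 duct array left out and was -3.97 with either mesoderm array left out. Crabp1 also turned, from 2.75 in E9.5 duct to -2.7 in E10.5 duct, with the neural-marker-rich array on the rostral side at E9.5. The E10.5 rostral array lay in slide row 1 and the caudal one in row 2, whereas each E9.5 pair lay in 1 row, so within-row position values are those of the E9.5 pairs.

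The interaction of position with reporter, fitted with 1 residual degree of freedom, was counted at 6 of 10 genes of at least 2-fold against 26.7% of probes and at 3 of 10 with an unadjusted p under 0.05 against 6.11%. Those 3 were Aldh1a1 (-8.05, SE 0.51, limma adjusted p 0.79, or 0.028 with the intensity-dependent prior; -7.12 with dim arrays at their floor and -5.13 with normexp), Adh1 (-3.8, SE 1.05, adjusted p 0.8; -3.45 and -2.32 in the same way) and Cyp26a1 (2.78, SE 0.87, adjusted p 0.82; 1.22 with dim arrays at their floor and 0.7 with normexp). Adh1 was lower rostrally in both ducts (-0.69 and -2.53, the rostral arrays not well above background) and higher rostrally in mesoderm (2.2, 4.58-fold). The 1 residual degree of freedom is how far the E9.5 and E10.5 duct pairs disagree, -4.1 against -3.85 for Aldh1a1. With so little of its own, each SE rests largely on the spread shared by all tested probes. The single mesoderm pair adds no spread to these SEs.

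**Figure D4:**
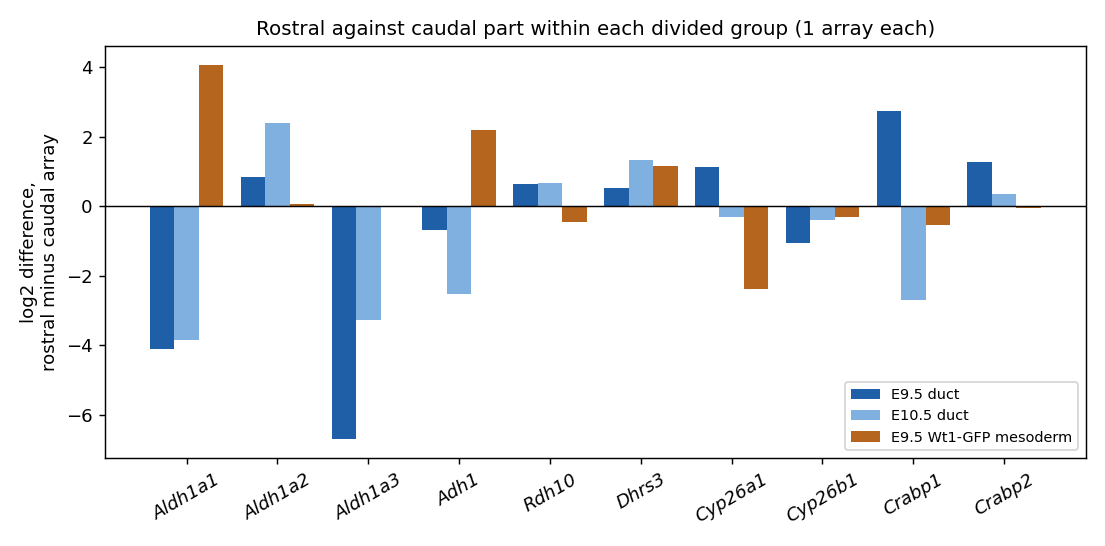
Rostral minus caudal log2 difference (vertical axis) of each of the 10 genes within E9.5 duct, E10.5 duct and E9.5 Wt1-GFP mesoderm, 1 array per part. Aldh1a3 (-6.7 and -3.28) and Aldh1a1 (-4.1 and -3.85) were far lower in rostral duct, while Aldh1a1 (4.08) and Adh1 (2.2) were higher in rostral mesoderm.

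The rest of the pathway was read from lists of receptors, transport and other enzymes, responsive genes and cofactors. In none of the 4 lists did a gene pass adjusted p 0.05 in any comparison. Of 6 receptor genes, 5 were lower and 1 higher in duct than in mesoderm at E9.5, 3 lower at unadjusted p 0.05 against 5.62% of all probes, with a list median of -0.71 against -0.04 over all probes. Rarb, the receptor gene whose promoter holds the repeat shown above, was at -1.21 at E8.75, at -1.2 and -0.74 in E9.5 duct, at -0.65 and -0.57 in E10.5 duct, at 1.1 in bud, and at 0.62 and 0.95 in mesoderm on its brightest probe. The mesoderm and bud arrays lay above all 5 others (reporter difference -1.75, SE 0.24, limma adjusted p 0.26; bud against E10.5 duct 1.71, SE 0.3, adjusted p 0.28). Its other probes gave -1.39 and 0.65 for the reporters, so the direction depends on the probe. So does that of the bud: the other probes were at -2.65 in bud against -2.05 and -2.16 at E10.5, and at -2.73 against -3.21 and -3.05. Rara differed by -0.64 (SE 0.22), Rxrb by -0.17 (SE 0.25) and Rxra by -2.3 (SE 1.25), the last with a second probe of the opposite sign.

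Among 21 of 22 transport, storage and other enzyme genes that could be tested, 6 were higher and 15 lower in duct, 2 and 3 of them at unadjusted p 0.05 against 6.1% and 5.62% of all probes (median -0.32 against -0.04). Of the 4 brightest, 3 are given here. Fabp5, a fatty-acid-binding protein that also carries retinoic acid, gave -0.95 (SE 0.53) between the reporters, Rdh14 -1.03 (SE 0.28) and Dhrs4 0.06 (SE 0.25). Cyp1b1 and Cyp26c1, the remaining Cyp26 gene, were singled out after their values were seen. Cyp1b1 lay 51.5-fold lower in E9.5 duct by the fit (-5.69, SE 1.64, limma adjusted p 0.39), or 32.7-fold with the dim array at its floor. Cyp26c1 was 2.39-fold higher there with the mesoderm arrays at their floor (limma adjusted p of the fit 0.36). Also singled out in this way, the retinol carriers Rbp4 and Ttr at E8.75 were at 0.58 and -0.58, above all other arrays, where they ran from -4.79 to -2.23 and from -6.91 to -3.62; the endoderm marker sum was highest on the same array, and its part was not tested.

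Of the responsive genes, 21 of 22 could be tested; 9 were higher and 12 lower in duct than in mesoderm, 4 and 7 at unadjusted p 0.05 against 6.1% and 5.62% of all probes, with a median of -0.61 against -0.04. Among the 4 brightest, Crabp2 is described above, the orphan receptor gene Nr2f1 was 6.04-fold lower in duct (-2.6, SE 0.89, limma adjusted p 0.42) and Hoxb5 2.36-fold higher (1.24, SE 0.26, adjusted p 0.32). Hoxb1 and Ret, the receptor of the bud inducer GDNF, were singled out after their values were seen. Hoxb1 was 8.84-fold lower in duct with the duct arrays at their floor (limma adjusted p of the fit 0.21). Ret was 30-fold higher in duct with the mesoderm arrays at their floor (limma adjusted p of the fit 0.21). The label check also used Ret as a duct marker. Ret was at -0.66 rostrally and 2.23 caudally at E9.5 and at -0.2 and 1.79 at E10.5, so its rostral arrays were the low ones in both ducts, as they were for Aldh1a1 and Aldh1a3. Of 7 cofactor genes, 3 were higher and 4 lower, 1 at unadjusted p 0.05 against 11.7% of all probes, with a median of -0.13. Of the 4 brightest, 3 gave 0.11 (Nrip1, SE 0.25), -0.79 (Ncoa2, SE 0.3) and -0.13 (Ncoa3, SE 0.23); the probes of Ncoa3 disagree in direction. The lists overlap the 10 genes at Cyp26a1, Dhrs3 and Crabp2. Of 51 pathway genes measured, 14 had several tested probes, and for 8 of these the probes disagreed on which reporter was higher. Bco1 and Stra8 were not well above background on any array.

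**Figure D5:**
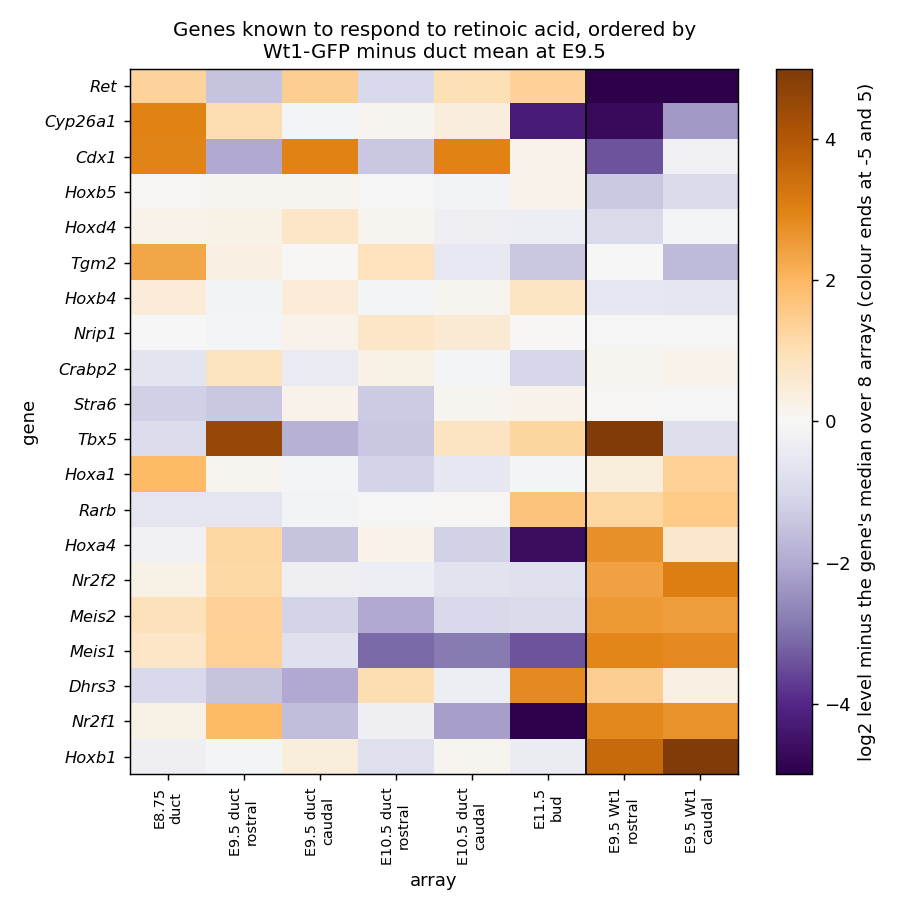
Level of 20 genes known to respond to retinoic acid, each relative to its own median over the 8 arrays (colour, log2, ending at -5 and 5), with arrays as columns and genes ordered by the difference between mesoderm and duct at E9.5. Ret and Cyp26a1 at the top were low in both mesoderm columns, and Hoxb1, Nr2f1 and Dhrs3 at the bottom were higher there than in E9.5 duct.

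Probes with the most similar pattern over the 8 arrays were found among 8844 probes that ranged by at least 2 log2 units, given as Pearson r with no test. For Aldh1a1 they were Aig1 (0.972), Kitl (0.961) and its near paralogue Aldh1a7 (0.956). The Aldh1a1 and Aldh1a7 probes share no run longer than 8 bases with each other. Whether either probe also matches the transcript of the other gene was not tested. For Aldh1a2 they were Ednra (0.988), Igf2os (0.985) and the somite-list gene Foxc2 (0.983). Aldh1a3 was most like Lrrc4 (0.97), Mtmr7 (0.967) and Mid1ip1 (0.965), and Adh1 most like Olfr984 (0.981), P4ha3 (0.957) and 4933400A11Rik (0.954). For Dhrs3 they were Olfr934 (0.964), Gfpt2 (0.953) and C2cd2 (0.943). Cyp26a1 was most like Gnaz (0.946), Exph5 (0.943) and Cdk5rap1 (0.936), Cyp26b1 most like Pdzd8 (0.981), Gnb1l (0.947) and Tex28 (0.947), and Crabp1 most like Itsn1 (0.977), Tub (0.976) and Plcg1 (0.967). Rdh10 and Crabp2 ranged by under 2 log2 units and were not matched. The 8 arrays fall into 5 groups, which all these probes share. Some matches lay near background on most arrays, among them Olfr984 (-6.81 to -4.99 on the Hoxb7-GFP arrays), 4933400A11Rik, Olfr934 and C2cd2. Their r therefore rests on few measured levels.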

How the data were processed

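Total RNA from 8 sorted samples was amplified and hybridised to Agilent 1-colour arrays, all on 1 slide and in 1 scan. Each deposited intensity is a background-subtracted, detrended signal from the Agilent Feature Extraction software, version 10.7.3.1, per the file headers. The deposited matrix holds log2 values with no stated scale; it followed the median-centred levels computed here at r = 0.9998 and served as an alternative.

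Control spots and spots called outliers were left out, repeated spots averaged, and 18 probes dropped, leaving 55663, of which 45585 were tested. Levels are log2 signal minus the log2 75th percentile of the array. limma 3.58.1 in R 4.3.3 (with data.table, version 1.17.8) fitted 5 group terms and a position term (0.5 rostral, -0.5 caudal, 0 undivided); the interaction had a position term per reporter. P-values were adjusted by Benjamini-Hochberg over all tested probes. Folds are fitted differences taken out of log2. An array "at its floor" is a dim array set at its lowest well-above-background level, or at the probe's own level if higher. Some probes not well above background lay above that lowest level, such as Wnt9b at -3.76 in rostral mesoderm, where it was -3.96. Folds with arrays at their floor are therefore not strict lower bounds. Marker sums add linear levels.

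All 10 genes were named, other pathway genes by the 4 brightest of each list (2 genes are counted in their lists but not reported here by name; others are marked as singled out), and pattern-alike genes by the 3 highest r. The genes and lists were chosen with earlier results of these data known. Promoters are RefSeq's (GRCm38.p6). Alternatives were normalization (quantile, normexp with offset 50, the deposited matrix), an intensity-dependent prior variance, no position term, a slide-row term, a floor for dim values, other probe filters, 1 probe per gene, and leaving out each array in turn. Fits without 1 array of a divided pair kept the position term. It then came from the other pairs and was applied to the array that remained, so such values also carry that shift. The code of the fit was run on simulated data with known differences, which checks the code and not these results.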

Additional observations from a re-analysis of the deposited data

Results flagged for a closer look

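The rostral minus caudal difference of Aldh1a1 differed between the reporters: it was negative in both ducts (-4.1 at E9.5 and -3.85 at E10.5) and positive in Wt1-GFP mesoderm (4.08), an interaction of -8.05 (SE 0.51, limma unadjusted p 0.00055, adjusted p 0.79). The caudal mesoderm array was not well above background for Aldh1a1 (-5.22), so 4.08 is not a difference measured on both sides. With that array at its floor, the rostral one was 8.86-fold higher. The interaction was -7.12 with dim arrays at their floor and -5.13 with normexp. That of Adh1 also differed, with -0.69 and -2.53 in the ducts and 2.2 in mesoderm, an interaction of -3.8 (SE 1.05, limma unadjusted p 0.035, adjusted p 0.8), or -3.45 with dim arrays at their floor and -2.32 with normexp; both rostral duct arrays were not well above background. Each mesoderm value rests on 1 pair of arrays, and no group had the 4 samples needed to look for a sample far from the others. The gene's own part of each interaction SE is only how far the E9.5 and E10.5 duct pairs disagree. The rest of the SE, and so of the p-value, comes from the spread that limma shares over all tested probes.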

How the results depend on the processing

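The count of probes past adjusted p 0.05 was 0 in all 6 comparisons, at unadjusted p under 0.05 5345, 6619, 3342, 5543, 2896 and 2787. With an intensity-dependent prior variance it was 789 between the reporters, 23 from E8.75 to E9.5 and 1 for the interaction of position with reporter. With normexp it was 236 between the reporters and 114 from E8.75 to E9.5, and without the position term 3 between the reporters. It was 0 in every fit that left out 1 array, for each comparison. For the 10 genes, 39 results were followed: every reporter difference and, in the other comparisons, differences of at least 2-fold in the main fit. Smaller differences, which reverse more easily, were left out. Of 635 alternative values, 623 kept their direction and side of the threshold, 5 passed it and 7 reversed. The 5 were Aldh1a2 between the reporters with the intensity-dependent prior and with normexp, and 3 results with that prior alone. These were Adh1 and Dhrs3 between the reporters and the Aldh1a1 interaction. No main value had passed the threshold. Some values could not move, because leaving out the E8.75 or the bud array does not change the reporter difference. The count of 623 is therefore no measure of stability. Without the rostral E9.5 duct array the reporter difference was -1.6 for Crabp1 and -0.49 for Crabp2, and Aldh1a3 was 1.43 from E8.75 to E9.5 and -1.17 from E9.5 to E10.5. Without the rostral mesoderm array the Crabp2 reporter difference was -0.36, and without either E9.5 duct array the pooled position difference of Aldh1a1 was 0.12. Over all fits that left out 1 array, the reporter difference ran from -1.6 to 2.77 for Crabp1 and from -0.49 to 0.64 for Crabp2, Aldh1a3 ran from -3.63 to 1.43 for the first step and from -1.17 to 3.89 for the second, and the position difference of Aldh1a1 ran from -3.97 to 0.12. The cause was not tested. No paired analysis was possible because the labels carry no replicate numbers; the rostral and caudal parts entered as a position term. The slide-row term and leaving out an array of an E9.5 or E10.5 pair left no residual degrees of freedom for the interaction and were not run there. Signal over background limits Aldh1a1, Aldh1a2, Aldh1a3, Adh1 and Cyp26a1, which were not well above background on 1 or 2 arrays each; fitted differences that use those arrays are not measured on both sides.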
